A study of Homo sapiens with 4 samples.

Results

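The DNA replication and G1/S genes described here are 38 genes whose products choose, load, start and run replication forks, supply them with nucleotides and histones, or control entry into S phase. They were taken by gene symbol from a table of 28930 genes; all 38 were found, and all 38 passed the filter on low counts that left 13022 genes for testing. RNA sequencing was done on MDA-MB-231, an established line of human breast cancer cells that lacks hormone receptors and has a mesenchymal character. A group of 2 libraries came from cells given a control siRNA, and a group of 2 from cells given an siRNA against hTrmt13, the tRNA ribose methyltransferase encoded by TRMT13; each group has a replicate 1 and a replicate 2. All 4 libraries share the same cell line; the sources used here give no siRNA dose or sequence and no time after transfection. The question put to these genes is whether their transcript levels differ between cells with and without the hTrmt13 knockdown.

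The libraries held between 9777267 and 13098985 counts. Levels are given in CPM, the counts scaled to a common library total by the TMM method. The labels do not say whether the replicates are separate cultures; p-values here therefore reflect only how these 4 libraries spread, which may be technical. The markers of the line were present in every library (VIM, CD44, AXL, CAV1, EGFR and FN1, the lowest value being 156 CPM for CD44 in knockdown replicate 1), ESR1 and PGR had no count, and CDH1 had 1 count in each of 2 libraries. ERBB2 ran from 112 to 166 CPM and EPCAM from 2.19 to 6.34 CPM. The blood markers PTPRC, CD14, CD3E and HBB stayed under 1 CPM, as did COL1A2, DCN and LUM among the fibroblast markers, while COL1A1 ran from 19.3 to 45.7 CPM. TRMT13 was lower in both knockdown libraries, at 14.9 and 18.9 CPM in control replicates 1 and 2 and 3.52 and 4.79 CPM in knockdown replicates 1 and 2 (log2 fold change −2.02, SE 0.34, edgeR adjusted p = 0.0399).

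In G1 phase the origin recognition complex, with CDC6 and CDT1, loads the ring-shaped MCM helicase onto DNA, and geminin blocks CDT1 afterwards so that no origin is licensed again in the same cycle. Cyclin E with CDK2 and the kinase CDC7 then convert the loaded helicase into a moving one by recruiting CDC45 and the GINS complex, and DNA polymerases copy the strands behind it on a PCNA clamp. Many of these genes are driven by E2F transcription factors, which the retinoblastoma protein holds back until cyclin D and cyclin E kinases phosphorylate it, and their transcripts peak around the start of S phase in cycling cells. In a bulk library, fewer cells in that phase and less of a transcript per cell cannot be told apart.

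Most of the 38 genes stood lower in the knockdown, and none passed the unpaired edgeR test across all genes. A total of 35 of 38 (92.1%) had a negative log2 fold change, against 49.6% of the 13022 genes tested, and the median was −0.73 against 0.01 for all genes tested. Within the replicate pairs, 32 of 38 members were lower in both (40.4% of all genes tested) and 0 were higher in both (39.2%). A level more than 2-fold lower in both pairs was seen for 10 members (26.3%, against 5.93% of all genes). The medians of the log2 difference were −0.81 in replicate pair 1 and −0.82 in replicate pair 2, where all genes tested stood at −0.01 and −0.01.

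In the main fit (4 libraries, the filter on low counts, no replicate block), no member was called by the edgeR quasi-likelihood test at an adjusted p under 0.05. In that fit 1.96% of all genes were called lower and 1.03% higher. At an unadjusted p under 0.05, 9 members were lower (23.7%, against 12.5% of all genes) and 0 higher (11.5%). DESeq2 called 6 members, all lower (5.15% of all genes lower, 3.52% higher), namely CDT1, MCM4, MCM5, MCM7, TYMS and E2F2, and limma voom called 0 lower (1.63%) and 0 higher (0.868%). The smallest edgeR adjusted p among the members was 0.0842, for MCM7. The number of members called depended on the fit. With no filter on low counts it was 12 in edgeR, all lower (1123 genes were then called lower in all). With the replicate number as a block in edgeR it was 28, all lower (20.8% of all genes were then called lower and 19.3% higher). The replicate differences of the 2 groups correlated over genes (r = 0.64 for all genes tested, 0.73 for the members). The labels state no shared batch, so whether the replicate numbers pair the libraries is not known. The edgeR adjusted p-values below come from the fit without a block unless another setting is named. With the block, those of MCM7, TYMS and E2F2 were 3.3e-06, 5.2e-08 and 5.4e-06, and 10 of 38 members were not called. Without a block, the number of members called rested on single libraries. With control replicate 1 left out it was 14, all lower (3.57% of all genes tested were then called lower), and with control replicate 2 left out it was 0 (3.71%). Leaving out knockdown replicate 1 gave 2, both lower (4.24%), and leaving out knockdown replicate 2 gave 11, all lower (3.06%). The median moved with them, to −1.18, −0.23, −0.36 and −1.34 in the same order, and the number of negative values was 37, 22, 30 and 38 of 38.

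**Figure D1:**
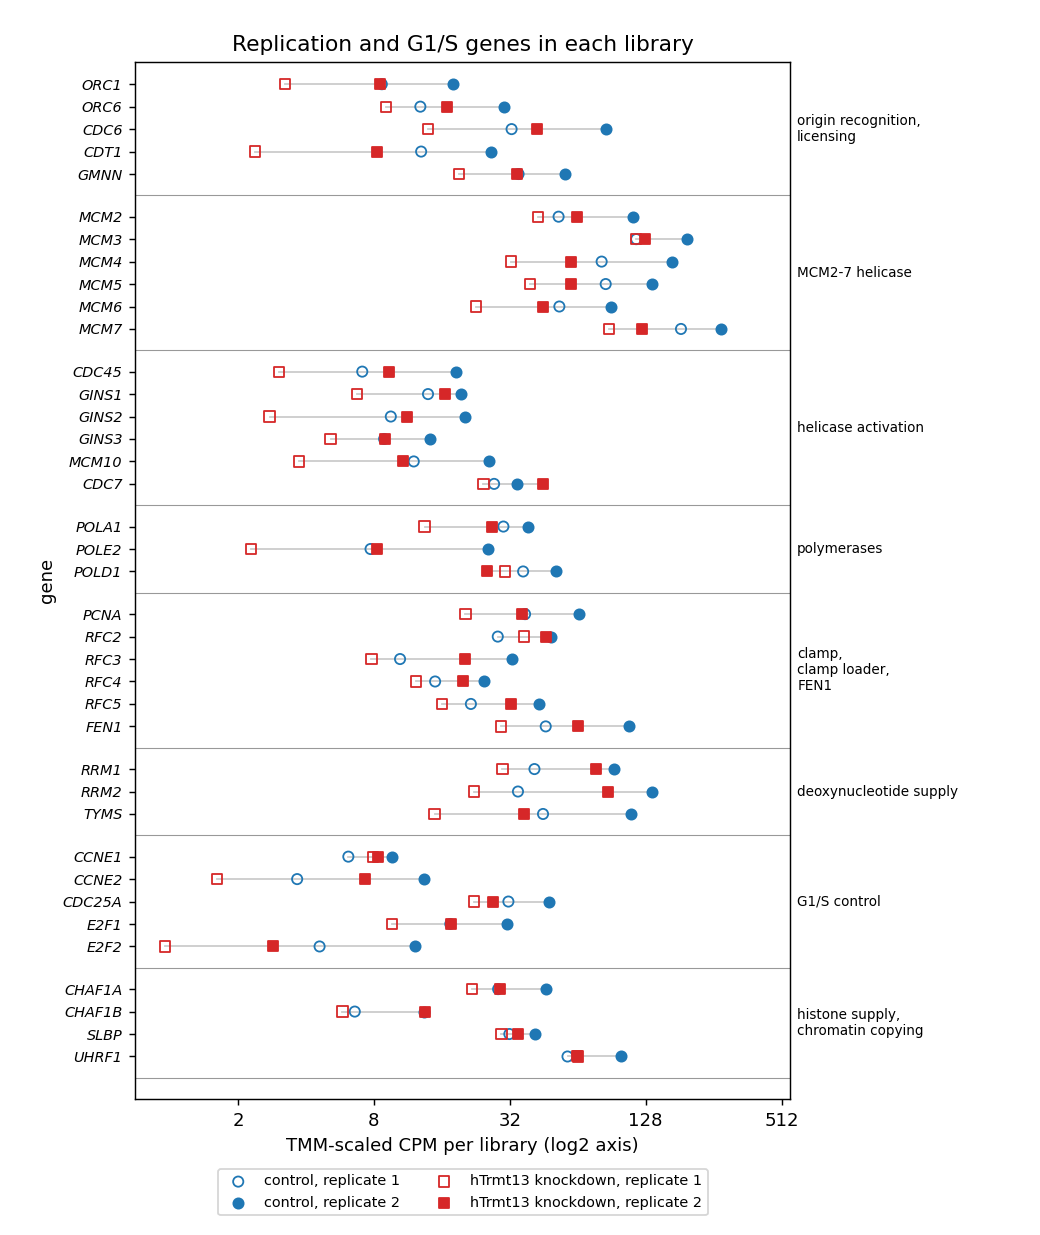
TMM-scaled CPM of each of the 38 genes in each of the 4 libraries, on a log2 axis, grouped by role (circles, control; squares, knockdown; open, replicate 1; filled, replicate 2). In 31 genes control replicate 2 is the highest library and knockdown replicate 1 the lowest, and in 14 genes both squares lie left of both circles.

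The spread between replicates was of the same size as the difference between groups, and it ran the same way in both. Control replicate 2 was above control replicate 1 in 38 of 38 members (52.3% of all genes), with a median log2 difference of 0.92, and knockdown replicate 2 was above knockdown replicate 1 in 36 of 38 (50.1%), with a median of 0.93. Over all genes tested those medians were 0.03 and 0.00. POLD1 and UHRF1 were the 2 exceptions, at −0.25 and −0.02 in the knockdown. The difference between replicates in control ran from 0.33 for CDC7 to 1.97 for RRM2, and in knockdown up to 2.06 for CCNE2.

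Control replicate 2 was the highest and knockdown replicate 1 the lowest library in 31 of 38 members (17.5% of all genes), and the 2 libraries in between often crossed. Knockdown replicate 2 lay above control replicate 1 in 24 members (51.1% of all genes). Both knockdown libraries lay below both control libraries in 14 members (36.8%, where all genes gave 26.8%), and 0 showed the reverse (27.5%). Across the 38 members the log2 differences of pair 1 and pair 2 correlated with r = 0.79, against r = 0.82 over all genes tested, and these pairs share no library. The r is a description over genes of the same libraries.

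**Figure D2:**
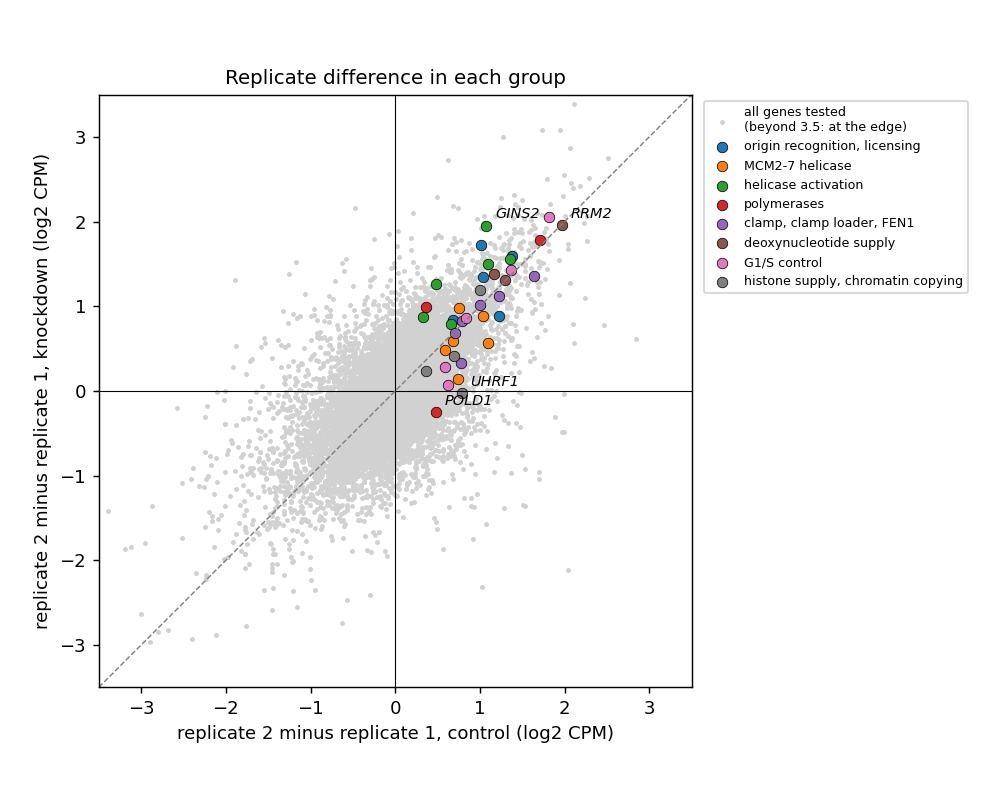
Log2 CPM difference between replicate 2 and replicate 1 in the control group (x axis) and in the knockdown group (y axis) for all genes tested (grey) and for the 38 genes (coloured by role); the dashed line marks equal differences. All 38 genes lie right of 0 and all but POLD1 and UHRF1 lie above 0.

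The DNA around the start sites of these genes was read from RefSeq (GRCh38.p14), taking the most upstream start listed for each gene. Windows ran from 250 bases before to 50 bases after the start. Of 38 members, 35 had a window; MCM4, MCM5 and CCNE2 did not. The 4 members with the smallest p that had a window are shown, since their differences between the groups were the largest against their error. Capitals mark matches, on either strand, to the E2F motif forms TTTCCCGC, TTTCGCGC, TTTGGCGC and TTTGCCGC and to the CCAAT box, and all else is in lower case.
MCM7 (chr7:100101348-100101647, minus strand): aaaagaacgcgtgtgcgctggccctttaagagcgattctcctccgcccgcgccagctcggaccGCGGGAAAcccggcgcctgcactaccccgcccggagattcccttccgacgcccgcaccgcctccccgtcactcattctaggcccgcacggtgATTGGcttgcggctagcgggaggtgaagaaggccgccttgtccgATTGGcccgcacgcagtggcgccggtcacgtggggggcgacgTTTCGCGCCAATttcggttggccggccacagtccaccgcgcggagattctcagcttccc
E2F2 (chr1:23531184-23531483, minus strand): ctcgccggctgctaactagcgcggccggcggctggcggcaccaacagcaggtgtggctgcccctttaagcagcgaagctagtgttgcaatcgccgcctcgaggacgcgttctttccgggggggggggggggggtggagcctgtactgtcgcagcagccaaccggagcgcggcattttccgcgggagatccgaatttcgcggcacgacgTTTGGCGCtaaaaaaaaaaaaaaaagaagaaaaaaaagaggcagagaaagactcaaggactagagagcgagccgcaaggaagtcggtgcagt
CDT1 (chr16:88803539-88803838, plus strand): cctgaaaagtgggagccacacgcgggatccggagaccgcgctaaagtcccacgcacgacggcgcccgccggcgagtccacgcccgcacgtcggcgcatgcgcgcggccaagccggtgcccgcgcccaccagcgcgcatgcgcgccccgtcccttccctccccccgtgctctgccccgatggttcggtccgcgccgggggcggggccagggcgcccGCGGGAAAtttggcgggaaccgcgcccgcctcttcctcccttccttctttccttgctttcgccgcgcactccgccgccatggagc
TYMS (chr18:657403-657702, plus strand): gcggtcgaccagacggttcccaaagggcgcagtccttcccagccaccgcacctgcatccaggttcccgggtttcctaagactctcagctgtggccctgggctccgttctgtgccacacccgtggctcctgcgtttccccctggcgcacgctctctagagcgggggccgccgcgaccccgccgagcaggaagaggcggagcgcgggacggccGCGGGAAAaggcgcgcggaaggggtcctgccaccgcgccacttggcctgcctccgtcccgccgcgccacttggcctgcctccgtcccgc

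In these windows, with positions counted from 1 at the 5′ end, MCM7 held TTTCCCGC on the reverse strand from position 64 to 71 and TTTCGCGC on the forward strand from 242 to 249. The last base of that second match is also the first base of a CCAAT box at 249 to 253, and 2 more CCAAT boxes lie on the reverse strand at 156 and 200. E2F2, itself an E2F gene, held TTTGGCGC at 209 to 216, and CDT1 and TYMS each held TTTCCCGC on the reverse strand, at 216 to 223 and 212 to 219. At least 1 E2F form was found in 18 of the 35 member windows (51.4%), against 528 of 9686 windows of tested genes (5.5%) and 911 of 27305 windows in all (3.3%). All 4 MCM helicase genes with a window held one (MCM2, MCM3, MCM6 and MCM7), and MCM6 held 4 matches. A CCAAT box was in 18 of 35 member windows (51.4%), against 36.7% for tested genes. The 18 members with an E2F match had a median log2 fold change of −0.84 (from −2.12 to −0.30) and the 17 without one a median of −0.56 (from −1.38 to 0.17); 16 of 18 and 13 of 17 were lower in both pairs. MCM4, MCM5 and CCNE2 are in neither set, and a difference between the sets was not tested. Many genes of this list are driven by E2F factors, so the share with a match describes the list and not the knockdown. A match to these letters is not a measured binding site.

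Genes of origin recognition and licensing were lower in both pairs in 5 of 5 cases, with a median log2 fold change of −1.07. CDT1, the loading factor that brings the MCM ring to origins, was at 12.9 and 26.3 CPM in control replicates 1 and 2 and at 2.38 and 8.24 CPM in knockdown replicates 1 and 2. Its groups did not overlap, and its pair differences were −2.36 and −1.65 (log2 fold change −1.87, SE 0.61, edgeR adjusted p = 0.132). ORC1, the largest subunit of the origin recognition complex, stood at 8.66 and 17.9 CPM in control and at 3.23 and 8.46 CPM in knockdown, with knockdown replicate 2 just under control replicate 1. CDC6, the ATPase that joins the origin complex before loading, had 32.6 and 84.9 CPM in control, against 13.9 and 42.1 CPM in knockdown, so the groups overlapped while both pairs were lower (−1.22 and −1.01). GMNN, which encodes the CDT1 inhibitor geminin, was at 35.0 and 56.2 CPM against 19.1 and 34.4 CPM (log2 fold change −0.77, SE 0.37). ORC6, another origin complex subunit, had the smallest difference of the group, at −0.74 (SE 0.48), and its groups overlapped.

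The MCM2-7 genes, which encode the subunits of the helicase ring, were split in size. Summed over the 6 genes, the level was 572 and 978 CPM in control replicates 1 and 2 and 342 and 479 CPM in knockdown replicates 1 and 2, so that the groups did not overlap and the ratio of knockdown to control was 0.597 in pair 1 and 0.490 in pair 2. MCM7 held 183 and 277 CPM in control, against 88.2 and 123 CPM in knockdown, and it had the smallest p of the 38 members (log2 fold change −1.12, SE 0.29, edgeR adjusted p = 0.0842). MCM4 went from 81.6 and 168 CPM to 32.3 and 60.0 CPM, the largest difference of the ring (−1.43, SE 0.43, edgeR adjusted p = 0.114). MCM5 stood at 85.1 and 137 CPM against 39.4 and 59.5 CPM (−1.17, SE 0.33, edgeR adjusted p = 0.0992), and MCM6 at 53.0 and 89.6 CPM against 22.7 and 44.9 CPM (−1.07, SE 0.40).

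For these 4 subunits every knockdown library was below every control library, and both pairs differed by between −0.99 and −1.48. The other 2 subunits did not show this. MCM3 was at 116 and 195 CPM in control and at 116 and 128 CPM in knockdown, so its replicate 1 pair did not differ (0.00) and its replicate 2 pair stood at −0.61. MCM2 was at 52.6 and 112 CPM against 42.8 and 63.7 CPM, with pair differences of −0.30 and −0.82. No test of a difference between subunits was run.

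**Figure D3:**
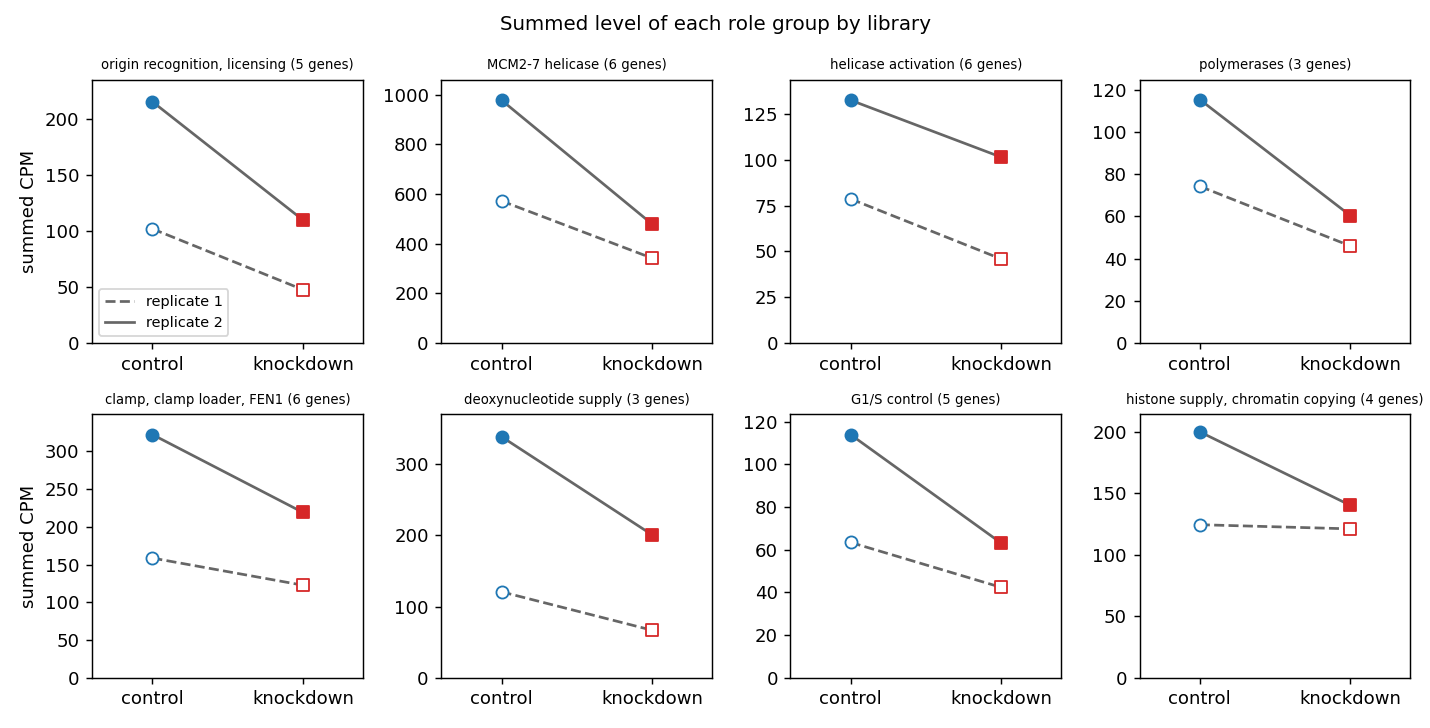
Summed TMM-scaled CPM of the genes of each role group in control and knockdown, 1 line for each replicate pair (dashed and open, replicate 1; solid and filled, replicate 2), with each axis starting at 0. Every line slopes down, least for histone supply and chromatin copying in replicate 1 (124 to 121 CPM).

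Helicase activation genes differed among themselves. MCM10, a scaffold needed when the helicase starts to unwind, was at 12.0 and 25.8 CPM in control, against 3.71 and 10.8 CPM in knockdown, without overlap (log2 fold change −1.38, SE 0.57, edgeR adjusted p = 0.205). CDC45, a part of the active helicase, had 7.10 and 18.5 CPM against 3.04 and 9.29 CPM, with pair differences of −1.18 and −0.98. Of the GINS complex genes, which complete the active helicase, GINS2 and GINS1 differed more in pair 1 (−1.72 and −1.02) than in pair 2 (−0.85 and −0.24), while GINS3 stood at −0.77 and −0.65. CDC7, the kinase that phosphorylates the loaded ring, went the other way in 1 pair: it held 27.2 and 34.3 CPM in control, against 24.4 and 44.7 CPM in knockdown, and its log2 fold change of 0.17 (SE 0.34) was the highest of all 38 members.

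All 3 polymerase genes were lower in both pairs. POLE2, the second subunit of leading-strand polymerase epsilon, was at 7.72 and 25.7 CPM in control, against 2.28 and 8.24 CPM in knockdown. Its pair differences were large and close to each other (−1.69 and −1.62), yet the difference between control replicates was larger still at 1.71, and the unpaired estimate was −1.66 with an SE of 0.73 (edgeR adjusted p = 0.225). POLA1, the catalytic subunit of the priming polymerase alpha, had 30.0 and 38.7 CPM against 13.4 and 26.7 CPM, without overlap. POLD1, the catalytic subunit of lagging-strand polymerase delta, had 36.6 and 51.1 CPM against 30.3 and 25.5 CPM, also without overlap, and knockdown replicate 2 was its lowest library.

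The clamp PCNA was at 37.4 and 64.7 CPM in control, against 20.3 and 36.3 CPM in knockdown (log2 fold change −0.85, SE 0.39, edgeR adjusted p = 0.239). Its pair differences were nearly equal at −0.87 and −0.83, and the groups stood apart by a narrow gap. The clamp loader genes RFC3, RFC4 and RFC5 were lower in both pairs by smaller amounts, between −0.28 and −0.70, and their groups overlapped. RFC2, a further loader subunit, stood at 28.3 and 48.7 CPM in control, against 36.9 and 46.3 CPM in knockdown, a log2 fold change of 0.11 (SE 0.32). FEN1, the nuclease that trims Okazaki fragments, was at 46.1 and 108 CPM against 29.3 and 64.0 CPM, with pair differences of −0.65 and −0.76.

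Of the 3 genes of deoxynucleotide supply, thymidylate synthase had larger differences than the subunits of ribonucleotide reductase, which was not tested. TYMS, which makes the thymidine nucleotide, was at 44.9 and 111 CPM in control, against 14.8 and 37.1 CPM in knockdown, without overlap and with pair differences of −1.59 and −1.57 (SE of the log2 fold change 0.55, edgeR adjusted p = 0.150). RRM2, the regulated small subunit of ribonucleotide reductase, had the widest replicate difference of the 38 in control, at 34.8 and 136 CPM, and 22.3 and 86.7 CPM in knockdown. Its pair differences of −0.64 and −0.65 therefore carried an unpaired SE of 0.76. RRM1, the large subunit, stood at −0.47 and −0.26 in the pairs.

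Among the genes of G1/S control, E2F2, a transcription factor of the activating kind, had the lowest log2 fold change of all 38. It was at 4.59 and 12.1 CPM in control, against 0.95 and 2.85 CPM in knockdown, with pair differences of −2.08 and −2.03 (log2 fold change −2.12, SE 0.65, edgeR adjusted p = 0.120). These values rest on 44 and 157 counts in control and 10 and 38 in knockdown. E2F1, its close relative, was at 17.4 and 31.2 CPM against 9.60 and 17.6 CPM, with pair differences of −0.85 and −0.82 and knockdown replicate 2 just above control replicate 1. CDC25A, the phosphatase that activates CDK2, was at 31.5 and 47.6 CPM against 22.3 and 27.0 CPM, without overlap (log2 fold change −0.68, SE 0.29).

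The 2 cyclin E genes had unlike values. CCNE2 was at 3.65 and 13.3 CPM in control, against 1.62 and 7.27 CPM in knockdown, lower in both pairs (−1.10 and −0.86) with overlapping groups. CCNE1 was at 6.16 and 9.59 CPM in control, against 7.89 and 8.31 CPM in knockdown, with pair differences of opposite sign (0.35 and −0.20) and a log2 fold change of 0.04 (SE 0.35). A difference between the 2 genes was not tested.

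Genes for histone supply and chromatin copying had the smallest differences of the 8 role groups, with a median log2 fold change of −0.25, and none of the 4 separated the groups. CHAF1A, the large subunit of the chromatin assembly factor that places histones behind the fork, was at 28.4 and 46.1 CPM in control, against 21.7 and 28.9 CPM in knockdown (−0.56, SE 0.32), while its partner CHAF1B was at 6.58 and 13.4 CPM against 5.80 and 13.5 CPM (−0.05, SE 0.51). SLBP, which binds the stem-loop of histone mRNA, stood at −0.12 and −0.25 in the pairs. UHRF1, which brings maintenance DNA methylation to the fork, was at 57.6 and 99.3 CPM against 64.2 and 63.2 CPM, higher in pair 1 (0.16) and lower in pair 2 (−0.65). The 6 members that were not lower in both pairs were thus MCM3, CDC7, RFC2, CCNE1, CHAF1B and UHRF1.

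**Figure D4:**
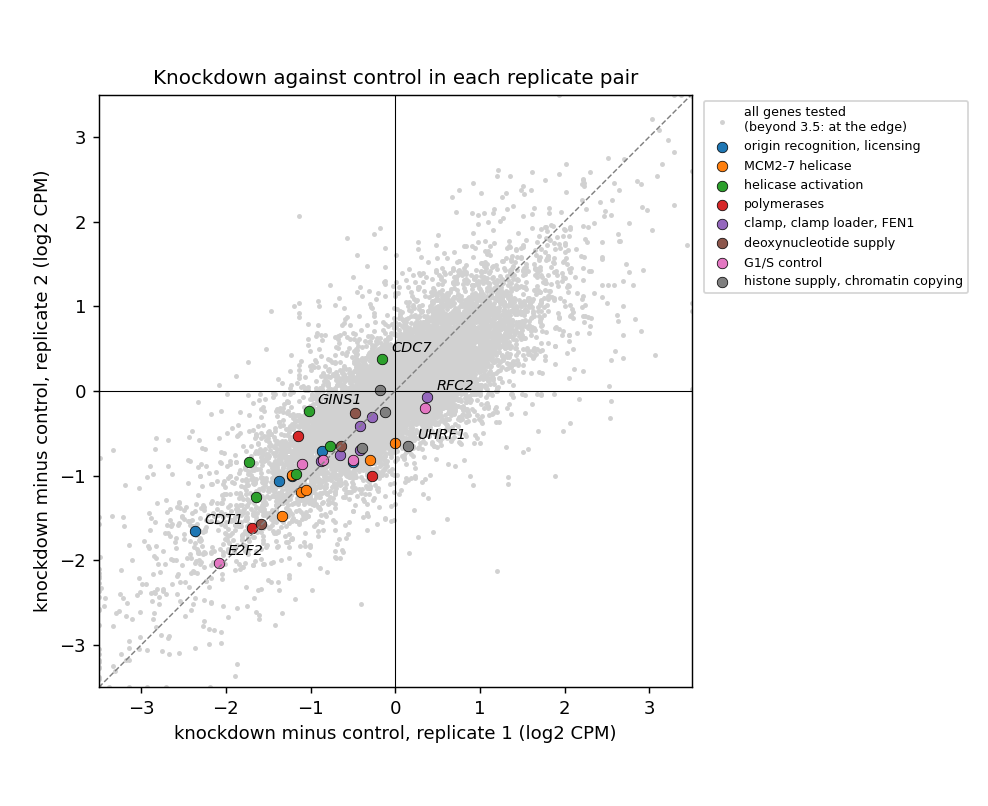
Log2 CPM difference of knockdown and control within replicate 1 (x axis) and within replicate 2 (y axis) for all genes tested (grey) and for the 38 genes (coloured by role); the dashed line marks equal differences. Of the 38 genes, 32 lie below 0 on both axes and 0 lie above 0 on both.

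Other replication and G1/S genes, a list of 79 outside the 38 with 78 tested, also stood mostly lower in the knockdown. Without a replicate block, the share called lower, 2 of 78 (2.56%), was near the 1.96% of all genes. Of the 78, 62 (79.5%, against 49.6% of all genes) had a negative log2 fold change. In both pairs 51 were lower (65.4%, against 40.4%) and 12 higher (15.4%, against 39.2%). The median was −0.29, which became 0.15 without control replicate 2 and was −0.74 without knockdown replicate 2. Both called genes were lower. CCND1, which encodes cyclin D1, fell from 1252 and 1065 CPM to 240 and 243 CPM (log2 fold change −2.26, SE 0.21, edgeR adjusted p = 0.0229), and CCND3, which encodes cyclin D3, fell from 68.4 and 83.2 CPM to 32.8 and 30.7 CPM (−1.25, SE 0.24, edgeR adjusted p = 0.0467). The CCND3 call was lost with library size alone (adjusted p = 0.0519), without control replicate 2 (0.108) and without knockdown replicate 2 (0.0587). In both cyclin D genes the replicates of a group were close, unlike in most of the 38 members.

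Chosen after their values were seen, POLE (the catalytic subunit of polymerase epsilon), POLD3, the ligase gene LIG1 and the helicase gene RECQL4 stood between −1.11 and −1.15 with edgeR adjusted p from 0.0683 to 0.0899, and each had both knockdown libraries below both control libraries. That separation held for 18 of the 78 genes (23.1%, where all genes gave 26.8%). In 7 genes both knockdown libraries lay above both control libraries (8.97%, where all genes gave 27.5%). Among those 7, also picked after their values were seen, SKP2, a ubiquitin ligase subunit that targets p27, had 21.4 and 35.8 CPM in control against 42.4 and 56.8 CPM (edgeR adjusted p = 0.199). The E2F partner TFDP1 had 71.6 and 106 CPM against 115 and 164 CPM (edgeR adjusted p = 0.227). An E2F form was found in 18 of 60 windows of this list (30.0%).

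Genes of G2 and mitosis also stood mostly lower in the knockdown, with a larger difference between replicates than between groups. Of 39 tested, 36 had a negative log2 fold change (92.3%, against 49.6% of all genes) and 35 were lower in both pairs (89.7%, against 40.4%). The medians were −0.70 in pair 1 and −0.40 in pair 2. Control replicate 2 was above control replicate 1 in 39 of 39 (52.3% of all genes, median of the list 1.33). Knockdown replicate 2 was above knockdown replicate 1 in 38 (50.1% of all genes, median of the list 1.68). Both knockdown libraries lay below both control libraries in 1 gene (2.56%, against 26.8% of all genes). With all 4 libraries, the filter on low counts and no replicate block, no gene was called by edgeR, by DESeq2 or by limma voom. In that edgeR fit 0 had an unadjusted p under 0.05. Calls made with a block, without the filter or with a library left out are given in the closing section. The median log2 fold change of −0.49 became 0.33 without control replicate 2 and 0.11 without knockdown replicate 1, and leaving out control replicate 1 or knockdown replicate 2 gave −0.97 or −1.48. The smallest p-values were those of CDC25B (−0.39), PLK1 (−1.04), ESPL1 (−0.92) and AURKB (−0.92), with edgeR adjusted p from 0.302 to 0.377. An E2F form was in 3 of 32 windows of this list (9.4%) and a CCAAT box in 23 (71.9%).

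Of 7 genes for CDK inhibitors, the proteins that hold G1/S kinases back, CDKN2A and CDKN2B had no count. Without a replicate block, edgeR called 2 of the 5 tested lower (1.96% of all genes) and 0 higher (1.03%). The last paragraph gives the calls made with a block. Both knockdown libraries lay below both control libraries in 4 of 5 (26.8% of all genes). CDKN2C was at 50.7 and 42.5 CPM in control, against 28.2 and 30.0 CPM in knockdown (log2 fold change −0.68, SE 0.24, edgeR adjusted p = 0.154). CDKN1B stood at −0.21 and CDKN2D at 0.19. CDKN1A, which encodes p21, fell from 83.0 and 70.8 CPM to 12.8 and 9.36 CPM (log2 fold change −2.79, SE 0.28, edgeR adjusted p = 0.0229), and CDKN1C, which encodes p57, from 9.92 and 6.88 CPM to 2.28 and 1.72 CPM (−2.07, SE 0.39, edgeR adjusted p = 0.0476). The CDKN1C call was lost with a filter of 5 CPM (adjusted p = 0.0538), with limma voom (0.0567) and without knockdown replicate 2 (0.0763).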

How the data were processed

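Per the labels' protocols, total RNA extracted with Trizol went into Illumina TruSeq libraries. The authors deposited a table of raw counts by gene symbol for 4 libraries. The builds named in the submitters' processing notes are GRCh37 and hg19, and the tools are HTSeq 0.6.1, STAR 2.5.2b, limma and cutadapt, with no role stated. No annotation or strand setting is given in the sources used here, so whether overlapping genes were separated is not known.

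Counts were filtered with filterByExpr (minimum count 10, minimum total 15), scaled by TMM and tested with the quasi-likelihood test of edgeR 4.0.16 in R 4.3.3 (knockdown against control, no covariate), with Benjamini-Hochberg adjustment over all 13022 genes at 0.05. SEs come from that fit. Differences within pairs are of log2 CPM with a prior count of 2. Lists are described by counts and medians, with no list test. DESeq2 1.42.0 and limma 3.58.1 (voom) were alternatives, with other scalings, other filters, a replicate block and each library left out. The script was tested on simulated counts. Replicates were separate libraries by their counts: the chi-square statistic divided by its degrees of freedom was 40.4 for the control pair and 44.5 for the knockdown pair. The members, lists and tests were chosen with earlier results of these data known. Named genes were every member, TRMT13, called genes of the other lists or else the 4 with the smallest p, and CCND1; genes named outside this rule (POLE, POLD3, LIG1, RECQL4, SKP2, TFDP1, CDKN2C, CDKN1B and CDKN2D) were chosen after their values were seen. PCLAF was matched by its older symbol KIAA0101, and PECAM1, a marker of the list, was not matched. Promoter windows were matched by symbol to RefSeq (GRCh38.p14), and no coordinates of the files' build were used.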

Additional observations from a re-analysis of the deposited data

How the results depend on the processing

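The members' median log2 fold change stayed negative under every setting tried, while its size changed when a library was left out. The number of members called varied with the library left out, a replicate block, the filter on low counts and the use of DESeq2. Scaling by DESeq2 size factors, by the upper quartile or by library size alone, a filter of 5 CPM, limma voom, and a prior count of 0.5 left the number of members called, the number negative and the medians close to the values above. The number of genes called in all was 389 in the main fit. With no filter on low counts every gene with a count was tested, and 1949 were called (826 higher, 1123 lower). With DESeq2 it was 1129 (3.52% of all genes higher, 5.15% lower). The members called became 12 without the filter and 6 with DESeq2, all lower. The other replication and G1/S genes called went from 2 to 12 and 6, and the G2/M genes called from 0 to 4 without the filter. With library size alone 1 gene of the other replication list was called, and 1 CDK inhibitor was called with the 5 CPM filter and with limma voom.

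Leaving out each library in turn gave 678 to 935 genes called in all, 0 to 14 members called and 22 to 38 members negative. For the other replication and G1/S genes the count called was 2 to 10, the count negative 33 to 66 and the median −0.736 to 0.153. For the G2/M genes these were 1 to 7, 7 to 39 and −1.48 to 0.333, and for the CDK inhibitors 1 to 2 called with a median of −0.801 to −0.543. In such a fit the lone library of a group is assumed to vary like the other group. Single members changed sign without control replicate 2 (13 members), without knockdown replicate 1 (5), without knockdown replicate 2 (3) or without control replicate 1 (2), and no member did under any other setting. Their log2 fold changes ran from −1.26 to 0.012 for ORC6, from −1.07 to 0.0183 for MCM2, from −0.672 to 0.0698 for MCM3, from −0.334 to 0.545 for CDC7, from −0.223 to 0.557 for RFC2, from −1.48 to 0.431 for RFC3, from −0.688 to 0.109 for RFC4, from −1.01 to 0.179 for RFC5, from −1.40 to 0.0193 for FEN1, from −1.17 to 0.381 for RRM1, from −1.94 to 0.653 for RRM2, from −0.238 to 0.396 for CCNE1, from −2.40 to 0.299 for CCNE2, from −0.789 to 0.558 for CHAF1B, from −0.358 to 0.00789 for SLBP and from −0.637 to 0.145 for UHRF1. With 1 library left out the groups are unequal in replicate number, so differences between replicates and between groups cannot be told apart. The cause was not tested.

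Libraries with the same replicate number deviated together (r = 0.64 between groups over all genes tested, 0.73 over the members), and the titles number the libraries of a replicate next to each other. The labels state no shared batch and there are only 2 pairs, so whether the numbers pair the libraries is not known. With a replicate block 5227 genes were called, 20.8% of all tested being lower and 19.3% higher, with 28 members (where 0 were called without it; all lower), 36 other replication genes (30 lower, 6 higher) and 25 G2/M genes (24 lower, 1 higher) among them. Of the CDK inhibitors, the blocked fit called CDKN1A, CDKN1C and CDKN2C lower (edgeR adjusted p = 2.1e-11, 6.3e-06 and 0.0029). It did not call CDKN1B or CDKN2D (0.326 and 0.413). E2F2, POLE2 and other members near 1 to 10 CPM rest on few counts, which limits their precision.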
